A study of Mus musculus with 24 samples.

Results

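Of 260 mRNA probes that the study lists as testis-specific and detectable in at least 1 male germ cell-related cell line, 58 were on in F9 embryonal carcinoma cells alone. They stand for 56 gene symbols, since Phc1 has 3 probes, and they are drawn from an array with 60804 transcript probes. Members were chosen by the scanner's detection flag: the signal had to be well above background on all 3 F9 arrays but not on all 3 arrays of GC-1 nor on all 3 of GC-2. Rcc1, Stra8, Star and Zfp42 were left out by name, and Stra8 and Zfp42 would otherwise have met the rule. Among the other listed mRNA probes, 105 were on in all 3 lines, 73 in GC-1 or GC-2 but not in F9, and 22 in F9 and 1 of the GC lines.

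The study profiled lncRNAs and mRNAs of brain, heart, kidney, liver and testis from untreated 8-week-old male ICR mice, with 3 biological replicates per tissue. Its cell lines were F9, GC-1 and GC-2, with 3 arrays each, harvested at passages 3 or 4. F9 is a line of embryonal carcinoma stem cells from a testicular tumor and was grown without retinoic acid, which makes these cells differentiate. GC-1 is an immortalized line with features of late spermatogonia, and GC-2 is a line that resembles spermatocytes. The labels named no transgene, knockout or drug treatment for any group, which does not tell how the cell lines were made. Whether the 3 arrays of a cell line came from separate cultures is not given in the sources used here, so p-values measure the spread between these arrays.

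Embryonal carcinoma cells are the stem cells of teratocarcinomas and share a transcription program with pluripotent cells of the early embryo. Several genes of the male germ line are also active in them. The piRNA pathway is a defense of the germ line in which PIWI proteins carry small RNAs that match transposon transcripts, cleave those transcripts and direct DNA methylation to transposon copies. Other germline genes are kept silent in somatic cells by DNA methylation and by Polycomb-type repressors at their promoters.

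Throughout, a level is the log2 processed intensity of a probe minus the 75th percentile of its array, so that 0 is that percentile. Levels of different probes are not compared, because each probe binds its target with its own strength. The array 75th percentile corresponded to an intensity of 305 to 384 on testis arrays and of 65.5 to 105 on F9 arrays. Between 34999 and 37393 probes were well above background on a testis array and between 23525 and 27537 on an F9 array. The median difference between F9 and testis, over the 20932 probes detected on all 3 arrays of both, was 1.497 in favor of F9. Differences are therefore also given relative to that median. Liver replicate 1 stood apart, with a 95th percentile of negative control spots at an intensity of 13.6 against 2.97 to 4.97 on the other 23 arrays, and only 18257 to 21349 probes were detected on a liver array.

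Only 1 marker of embryonal carcinoma cells was read, through its probe on the study's list. That list asked for detection in testis and in a cell line but not in the other tissues. It also asked for a signal in testis at least 5-fold that in those tissues. The marker is therefore no independent check of the F9 label. Zfp42, a pluripotency marker also known as Rex1, was at 4.65 ± 0.39 in F9 (SD, n = 3), at -1.61 ± 0.26 in testis and on no array of any other group. Stra8, a marker of germ cells about to enter meiosis, was at 1.25 ± 0.34 in F9 and 0.10 ± 0.14 in testis and was detected on no GC-1 or GC-2 array. Star, a Leydig cell marker, was detected on all arrays of testis, GC-1 and GC-2 and on 1 array each of F9, brain and heart. Acr, the acrosomal protease of spermatids and sperm, was at 2.76 ± 0.11 in testis and -1.77 ± 0.19 in F9, and was detected on all arrays of testis, F9, GC-1 and GC-2, on 2 of brain and on 1 of kidney. The study's wider mRNA lists were not searched for symbols. Probe symbols were taken from the study's list of 260 mRNA probes alone. Apart from Gata1, a member described below, that list named none of the other markers chosen for germ, Sertoli, Leydig, red blood and fibroblast cells. How far each of these cell types contributed to the testis levels was not tested.

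Promoter windows are shown for the 5 members that were called higher in F9 than in testis, because these ran against the direction of most calls. Each is the 250 bases before the annotated start, 5′ to 3′ on the strand of the gene, from RefSeq on GRCm38.p6, with CG dinucleotides in capitals. Trim71 lies at chr9:114564370-114564619 (minus strand), Zfp534 at chr4:147702632-147702881 (minus), Zscan10 at chr17:23600576-23600825 (plus), Nup62cl at chrX:140062569-140062818 (minus) and Tex19.1 at chr11:121145893-121146142 (plus). For Nup62cl the annotated gene reaches further upstream than the start that this window precedes.
Trim71: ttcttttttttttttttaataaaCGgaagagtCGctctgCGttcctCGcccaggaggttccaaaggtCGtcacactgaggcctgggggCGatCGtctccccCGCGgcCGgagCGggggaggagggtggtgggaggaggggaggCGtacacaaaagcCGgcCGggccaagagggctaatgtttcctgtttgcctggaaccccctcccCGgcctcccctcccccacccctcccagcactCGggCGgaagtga
Zfp534: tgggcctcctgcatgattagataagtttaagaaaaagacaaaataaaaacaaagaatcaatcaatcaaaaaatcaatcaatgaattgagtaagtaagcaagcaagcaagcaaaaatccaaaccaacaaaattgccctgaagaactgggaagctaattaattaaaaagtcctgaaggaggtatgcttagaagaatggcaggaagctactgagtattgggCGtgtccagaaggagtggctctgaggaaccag
Zscan10: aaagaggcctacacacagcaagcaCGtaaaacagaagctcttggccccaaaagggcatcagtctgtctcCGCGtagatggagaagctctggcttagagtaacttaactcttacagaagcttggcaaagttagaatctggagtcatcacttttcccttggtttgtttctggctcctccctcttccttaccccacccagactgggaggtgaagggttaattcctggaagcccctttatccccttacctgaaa
Nup62cl: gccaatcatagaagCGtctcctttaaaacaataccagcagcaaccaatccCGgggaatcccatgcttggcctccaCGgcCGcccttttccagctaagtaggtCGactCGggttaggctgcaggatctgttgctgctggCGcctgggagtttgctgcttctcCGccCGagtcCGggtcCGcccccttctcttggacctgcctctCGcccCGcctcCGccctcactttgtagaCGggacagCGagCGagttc
Tex19.1: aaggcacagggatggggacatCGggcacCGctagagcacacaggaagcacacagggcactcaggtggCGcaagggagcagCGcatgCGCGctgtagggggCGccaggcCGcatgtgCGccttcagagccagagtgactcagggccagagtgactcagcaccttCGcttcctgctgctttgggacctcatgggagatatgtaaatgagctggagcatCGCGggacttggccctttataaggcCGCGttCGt
Trim71 and Nup62cl have 17 CG dinucleotides each in the window and Tex19.1 has 15. Zscan10 has 3 and Zfp534 has 1, so the 5 windows run from CG-rich to CG-poor.

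The Ctag2 family is shown for the opposite pattern, as its 3 members are on the X chromosome and were called lower in F9. Ctag2 belongs to the cancer/testis antigens, proteins normally made in the germ line and found again in tumors, and Gm6880 and Gm6890 are now named Ctag2l1 and Ctag2l2. The windows are chrX:65047394-65047643 (plus strand), chrX:74481400-74481649 (minus) and chrX:74740677-74740926 (plus), and the annotated Gm6880 gene also reaches upstream of the start used.
Ctag2: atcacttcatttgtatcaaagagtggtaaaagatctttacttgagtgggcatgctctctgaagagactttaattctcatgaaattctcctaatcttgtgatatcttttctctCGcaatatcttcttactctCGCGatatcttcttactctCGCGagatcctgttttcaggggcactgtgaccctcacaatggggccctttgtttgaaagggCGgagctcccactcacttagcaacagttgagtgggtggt
Gm6880: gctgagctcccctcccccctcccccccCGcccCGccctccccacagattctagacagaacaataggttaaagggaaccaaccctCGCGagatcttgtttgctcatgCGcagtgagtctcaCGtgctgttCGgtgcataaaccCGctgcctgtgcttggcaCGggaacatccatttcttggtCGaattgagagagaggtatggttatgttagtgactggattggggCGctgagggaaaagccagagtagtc
Gm6890: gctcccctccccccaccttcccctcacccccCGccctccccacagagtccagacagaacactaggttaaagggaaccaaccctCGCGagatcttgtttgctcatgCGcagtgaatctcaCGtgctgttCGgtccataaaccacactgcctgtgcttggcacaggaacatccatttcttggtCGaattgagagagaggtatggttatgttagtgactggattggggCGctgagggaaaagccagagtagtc
Gm6880 and Gm6890 were identical at 92.2% of the aligned positions, and Ctag2 was identical to Gm6880 at 45.2% and to Gm6890 at 46.7%. Whether the probes for Gm6880 and Gm6890 bind each other's transcripts was not tested, so their separate values are uncertain.

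Detection in the lines and in the tissues chose the members, and the following values describe that choice. No member was well above background on any liver array, 53 were on no kidney array, 47 on no heart array and 41 on no brain array. The lowest level well above background was -1.61 to -0.98 on liver arrays and -3.81 to -2.33 on brain, heart and kidney arrays. A weak signal was therefore harder to detect in liver. Of the 58 members, 31 were on no GC-1 or GC-2 array, and 20 were on no array outside testis and F9. Another 27 were well above background on at least 1 GC array, and 10 of them on 2 arrays of a line. Per array, 4 to 11 members were on in GC-1 and 3 to 10 in GC-2. The level in F9 was at least 1.76-fold that in GC-1 for every member, with a median of at least 4.99-fold, when a GC array without a clear signal was set at its lowest signal well above background or at the probe's own signal, whichever was higher. Against GC-2 the median was at least 4.67-fold and the lowest bound, that of AA467197, was 1.14-fold. This probe was at 2.12 on GC-2 replicate 1 and at -4.82 and -5.11 on the other GC-2 arrays.

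**Figure D1:**
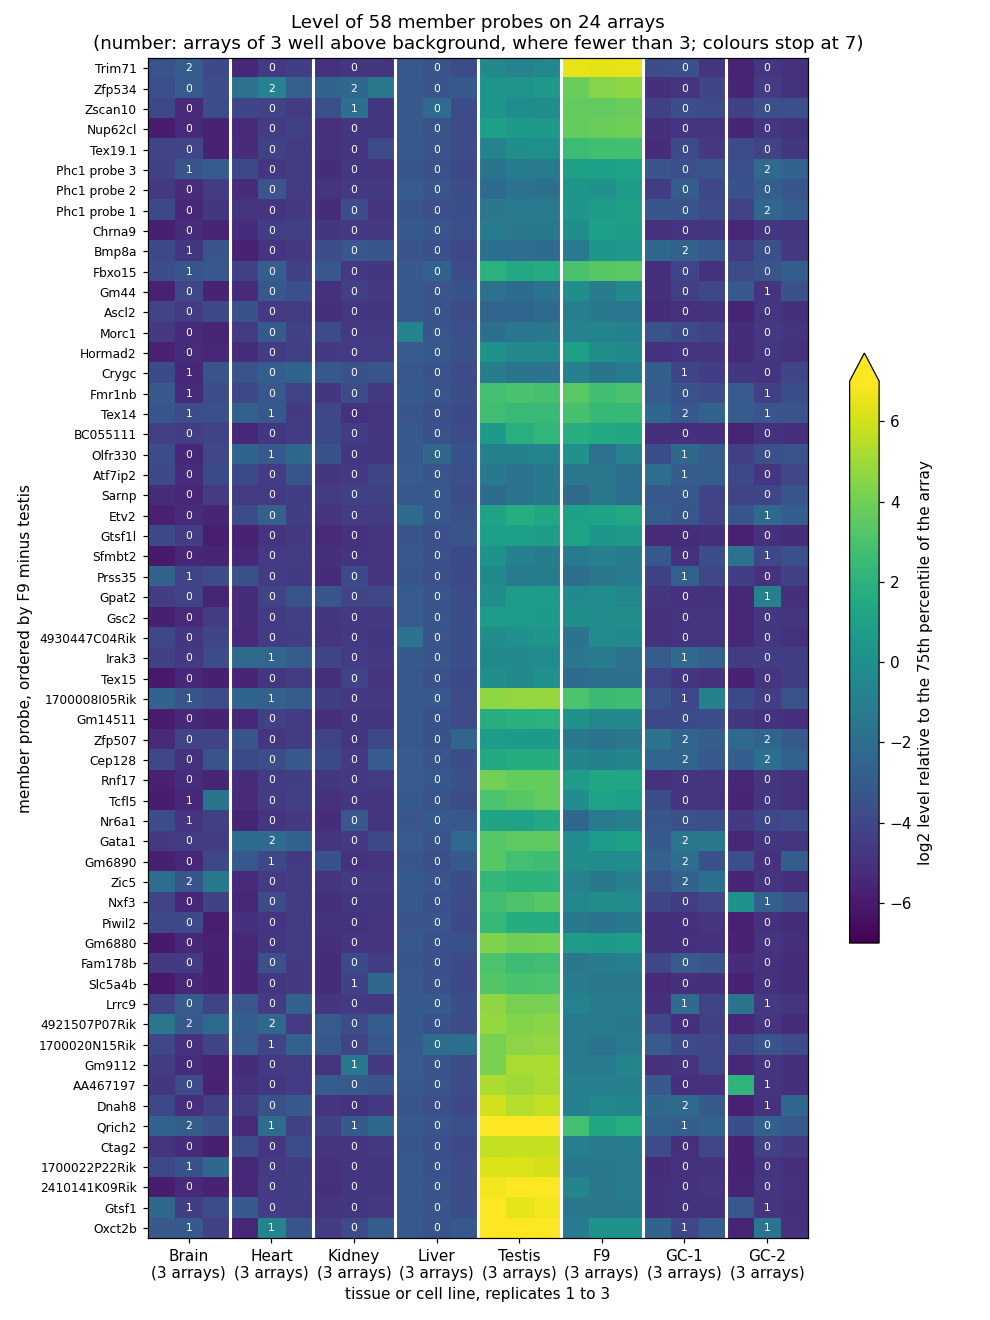
Level of the 58 member probes (rows, ordered by the difference between F9 and testis) on 24 arrays (columns, 3 per tissue or cell line), as log2 relative to the 75th percentile of the array, with colors that stop at 7. White numbers give on how many of 3 arrays the probe was well above background where this is below 3: no member has a number above 0 in liver, and 42 members show 0 in GC-2.

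Sarnp had the smallest margin over the lowest detected F9 signal, 0.19 on the log2 scale, followed by Atf7ip2 (0.30), Tex15 (0.31) and Olfr330 (0.40). Just outside, 15 listed probes were on in 2 of 3 F9 arrays. Kif14, a mitotic kinesin, was among them at -1.20, -2.60 and -1.61. Ash2l, a subunit of histone H3 lysine 4 methyltransferases, was at 3.46 ± 0.15 in F9 but was also detected on all 3 GC-1 arrays. A second Tex14 probe and a second Atf7ip2 probe were likewise detected on all 3 GC-1 arrays, so for these genes membership holds for 1 probe and not for the gene.

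The rule asked for a signal in F9 and in testis but did not ask which was higher, and that difference was tested with limma. The same F9 and testis arrays had chosen the members, so the counts describe them and are no independent support. The study's list also asked for a testis signal at least 5-fold that in the other tissues, while F9 only needed detection. All probes and the probes detected in both were not chosen this way, so the members' shares and medians are not like for like with theirs. How far this choice moved the counts was not tested. A call needed a difference of at least 5-fold and a p of at most 0.05 after Benjamini-Hochberg adjustment over all probes. By this measure 23 members were lower in F9, which is 39.7% of them, against 11.2% of all 60804 probes and 5.32% of the 20932 probes detected in both. Another 5 members were higher in F9, or 8.62%, against 20.0% of all probes and 31.2% of those detected in both. The remaining 30 were called neither way. With the adjusted p alone, 31 were lower (53.4%, against 18.7% of all probes and 14.0% of those detected in both), 14 were higher (24.1%, against 63.8% and 69.4%), and 13 had an adjusted p above 0.05.

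The split over all probes moved with the scaling. When arrays were scaled to the median of the 13551 probes detected on all 24 arrays, 3764 probes were called higher and 10533 lower, against 12156 and 6825 as reported. Over the 20932 probes detected in both, that scaling gave 2323 higher and 2347 lower, against 6534 and 1113 as reported. Over all probes, quantile normalization gave 7114 higher and 7406 lower, and the median of the probes detected on each array gave 3259 and 11145. Over the members the median difference was -0.997, and relative to the median of probes detected in both it was -2.49. The members ran from -9.42 for Oxct2b to 7.01 for Trim71, and 47 of 58 lay below the median of probes detected in both. For 46 members the F9 and testis arrays did not overlap. The same count was not made over all probes, so it is not read as a trait of the members. On slide 1, which held replicate 1 of both, the median was -1.58, and 55 of 58 members, all 28 called ones included, had the sign of the mean difference. The slide 1 arrays are part of that mean, and the share over all probes was not computed. The agreement is therefore no separate support for the calls. Among the mRNAs on in all 3 lines, the median difference was 0.03, with 11 of 105 called lower and 20 called higher, and among those on in F9 and 1 GC line it was -1.15, with 7 of 22 lower and 1 higher. Whether these sets differ from the members was not tested. In testis, fewer cells of a type and less RNA per cell cannot be told apart.

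**Figure D2:**
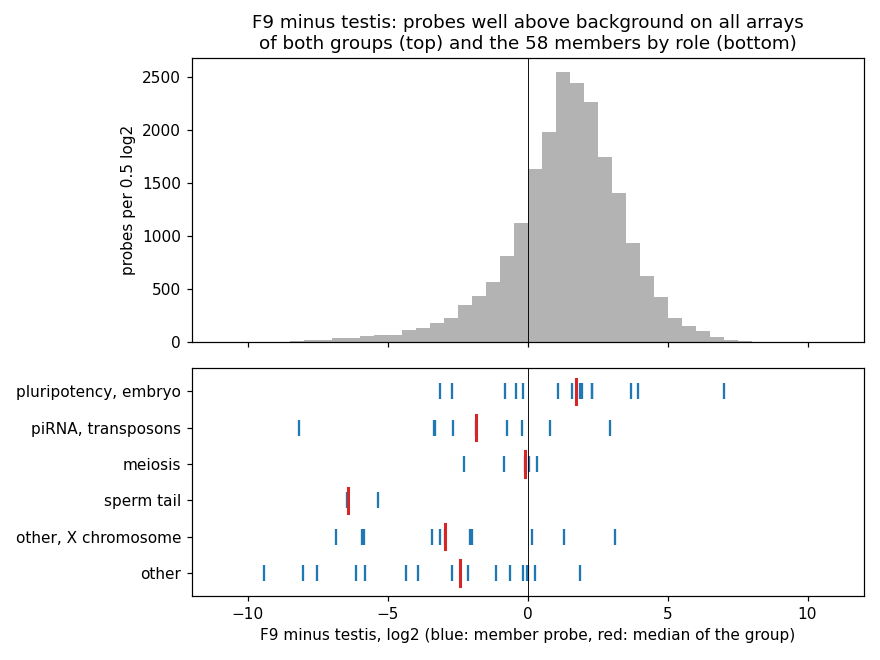
Top: number of probes per 0.5 log2 of the difference between F9 and testis, over the 20932 probes well above background on all arrays of both, with a median of 1.497. Bottom: the same difference for each of the 58 members (blue), by role group, with the group median in red, which runs from -6.41 for sperm tail genes to 1.74 for pluripotency and early embryo genes (over probes, 3 of them of Phc1).

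Regulators of pluripotency and of the early embryo held 14 of the 58 probes, for 12 genes. Of these probes 3 were called higher in F9, 2 lower and 9 neither way, with a median difference of 1.74, or 0.24 relative to the probes detected in both. This median counts Phc1 with 3 probes. Over the 12 genes, with probes of a gene averaged, it was 1.33, or -0.16 relative to the probes detected in both. Trim71, the mouse LIN-41, is an RNA-binding protein that keeps stem cells proliferating and is a classic target of let-7 microRNAs. Its levels were 6.49, 6.45 and 6.54 on the F9 arrays and -0.33, -0.78 and -0.45 on the testis arrays. All F9 arrays lay far above all testis arrays, and the difference of 7.01 (SE 0.34, 129-fold) had an adjusted p of 4.07e-09 (limma, Benjamini-Hochberg). No GC array detected Trim71, where F9 was at least 657-fold above GC-1 and at least 715-fold above GC-2. Outside testis and F9 it was detected on 2 brain arrays alone, where it read -3.36 and -2.85.

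Zfp534, a zinc finger gene, was at 3.81, 4.47 and 4.61 in F9 and at 0.27, 0.23 and 0.57 in testis. The groups did not overlap, and F9 was 3.94 higher (SE 0.33, limma adjusted p 4.87e-07). It was also well above background on 2 heart arrays and on 2 kidney arrays. Zscan10, a transcription factor of embryonic stem cells, was at 3.61, 3.62 and 3.80 in F9 and at 0.22, -0.20 and -0.12 in testis. F9 was again above testis on every array, by 3.71 (SE 0.26, limma adjusted p 8.40e-08). Trim71 and Zfp534 were called under all 24 other settings, while Zscan10 lost its call, at 2.23, when each array was scaled to the median of its own detected probes.

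Fbxo15, an F-box gene activated by OCT4 and SOX2 in embryonic stem cells, was at 3.01, 3.37 and 3.40 in F9 and at 1.94, 1.43 and 1.63 in testis. The arrays did not overlap, and the difference of 1.59 (SE 0.32, limma adjusted p 5.87e-04) was 3.02-fold and below the fold for a call. Relative to the probes detected in both it was 0.10. Phc1 encodes a Polycomb protein of the canonical PRC1 complex, and its 3 probes agreed in direction. Probe 1 was at 0.32, 0.69 and 0.96 in F9 and at -1.44, -1.28 and -1.18 in testis. Probe 2 was at 0.38, 0.15 and 0.67 in F9 and at -2.13, -1.73 and -1.82 in testis. Probe 3 was at 0.97, 0.92 and 1.12 in F9 and at -1.61, -1.07 and -1.21 in testis. No F9 array overlapped a testis array for any of the 3, and the differences of 1.96, 2.29 and 2.30 had limma adjusted p of 5.53e-04, 1.02e-04 and 2.74e-05 but stayed below 5-fold. Probes 2 and 3 passed 5-fold, at 2.33 and 2.34, with arrays scaled to the median of all probes, and also when testis replicate 2, testis replicate 3 or F9 replicate 2 was left out, and probe 3 did so with the slide as a block. With the median of probes detected on all 24 arrays the 3 differences were 0.65 (limma adjusted p 0.183), 0.99 and 0.997. These probes target 1 gene and are not independent.

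Bmp8a, a BMP ligand, was placed in this group although it acts in spermatogenesis, and the group median without it was not computed. It was at -1.21, 0.37 and 0.45 in F9 and at -1.91, -2.02 and -2.09 in testis. F9 replicate 1 was much lower than the other F9 arrays but above all testis arrays, and the difference was 1.88 (SE 0.43, limma adjusted p 0.0016). Ascl2, a basic helix-loop-helix factor needed for the placenta, was at -1.004, -1.37 and -1.51 in F9 and at -2.45, -2.43 and -2.23 in testis. Its difference of 1.08 (SE 0.23, limma adjusted p 9.46e-04) changed sign, to -0.23 and -0.40, when arrays were scaled to the median of probes detected on all 24 arrays or on each array.

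Both members of this group that were called lower are transcription factors. Zic5, a zinc finger factor of the neural plate, was at -0.81, -1.32 and -0.88 in F9 and at 2.28, 2.05 and 2.06 in testis, a difference of -3.13 (SE 0.34, limma adjusted p 4.89e-06). Nr6a1, the germ cell nuclear factor, an orphan receptor that shuts off Oct4 as stem cells differentiate, was at -2.32, -1.22 and -0.91 in F9 and at 1.19, 1.09 and 1.43 in testis. Its difference was -2.72 (SE 0.34, limma adjusted p 1.53e-05), and the arrays overlapped for neither gene. Both calls were lost with normexp background correction, at -2.28 for Zic5 and -1.87 for Nr6a1.

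Gsc2, a goosecoid-like homeobox gene, was at -0.05, -0.24 and -0.09 in F9 and at 0.71, 0.71 and 0.63 in testis, a difference of -0.81 without overlap (limma adjusted p 0.00385). Etv2, an ETS factor of blood and vessel precursors, was at 1.02, 1.098 and 1.47 in F9 and at 1.05, 1.71 and 1.38 in testis, and the arrays overlapped (limma adjusted p 0.649). Sfmbt2, a Polycomb-associated gene imprinted in the placenta, was at -1.16, -0.89 and -1.05 in F9 and at 0.14, -0.84 and -1.14 in testis, with testis replicate 1 apart and overlap between the groups (limma adjusted p 0.52). Of the 28 genes named for pluripotency and the early embryo, 15 had a probe among the study's 260 listed mRNA probes. The rest were not looked up on the array, and the 28 were chosen with the members known. Of the 15, the 3 genes outside the members were Zfp42, Zfp951 and Gsc. Their differences were 6.26, 1.68 and -1.69 (SE 0.28, 0.24 and 0.19), of which Zfp42 passed the fold for a call.

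The piRNA pathway and transposon silencing held 9 members, of which 4 were called lower in F9, 1 higher and 4 neither way. The median difference was -1.83, or -3.33 relative to the probes detected in both. Of 26 genes named for this pathway, 10 had a probe among the study's 260 listed mRNA probes. The rest were not looked up on the array, so the share of the pathway that is on in F9 is not known. Among these 10 the only non-member was Ddx43, a germ cell RNA helicase. It was at 2.15 ± 0.43 in F9 and 2.78 ± 0.13 in testis and was also detected on all 3 GC-2 arrays. Gtsf1, a small zinc finger protein that enables PIWI proteins to cleave targets, was at -1.47, -1.43 and -1.36 in F9 and at 7.01, 6.48 and 6.75 in testis. Every testis array lay above every F9 array, with a difference of -8.17 (SE 0.40, 288-fold, limma adjusted p 3.88e-09). Piwil2, the PIWI protein MILI that loads piRNAs in fetal and adult germ cells, was at -1.34, -1.62 and -1.36 in F9 and at 2.37, 1.69 and 1.61 in testis. The difference was -3.33 without overlap (SE 0.26, limma adjusted p 2.63e-07), and no GC array detected it.

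Rnf17, a Tudor-domain protein of spermatocytes and spermatids that restrains piRNA production, was at 0.73, 1.41 and 1.21 in F9 and at 3.99, 3.72 and 3.69 in testis. The difference was -2.68 without overlap (SE 0.24, limma adjusted p 7.62e-07). Nxf3, of an RNA export family whose fly counterpart carries piRNA precursors out of the nucleus, was at -0.47, -0.08 and -0.25 in F9 and at 2.70, 3.11 and 3.36 in testis. Its difference was -3.32 without overlap (SE 0.67, limma adjusted p 5.72e-04), and it read 0.16 on GC-2 replicate 1 against -2.68 and -3.33 on the other GC-2 arrays. All 4 calls of lower levels in this group were kept under the 24 other settings.

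Tex19.1 ran the other way. It encodes a protein of germ cells, placenta and pluripotent cells that restrains retrotransposons, and it was at 2.59, 2.74 and 2.78 in F9 and at -0.76, -0.0013 and 0.02 in testis. F9 was above testis on every array, by 2.95 (SE 0.36, 7.72-fold, limma adjusted p 1.15e-05), and no GC array and no array of another tissue detected it. With 3 of the 24 other settings the fold fell under 5, with differences of 1.47 to 2.23. Morc1, an ATPase that represses transposons in male germ cells, was at -0.78, -0.71 and -0.83 in F9 and at -1.81, -1.53 and -1.40 in testis. Its difference of 0.81 (SE 0.24, limma adjusted p 0.00835) turned to -0.50 and -0.67 when arrays were scaled to the median of probes detected on all 24 arrays or on each array.

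Tex15, a nuclear protein that links piRNAs to DNA methylation, was at -2.12, -1.82 and -1.83 in F9 and at -0.07, -0.29 and 0.08 in testis. The arrays did not overlap, and the difference of -1.83 (SE 0.31, limma adjusted p 1.74e-04) was below 5-fold. Gpat2, a mitochondrial outer membrane protein that binds MILI, was at -0.34, -0.20 and -0.46 in F9 and at -0.14, 0.67 and 0.71 in testis, without overlap. Its limma adjusted p was 0.448, with an SE of 0.90 in a fit that includes a GC-2 array at -0.85 beside others at -5.45 and -5.08. Gtsf1l, the paralog of Gtsf1, was at 1.097, 0.43 and 0.52 in F9 and at 0.92, 0.90 and 0.87 in testis. Its arrays overlapped, the difference was -0.21 (SE 0.25, limma adjusted p 0.437), and neither GC line detected it on any array.

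**Figure D3:**
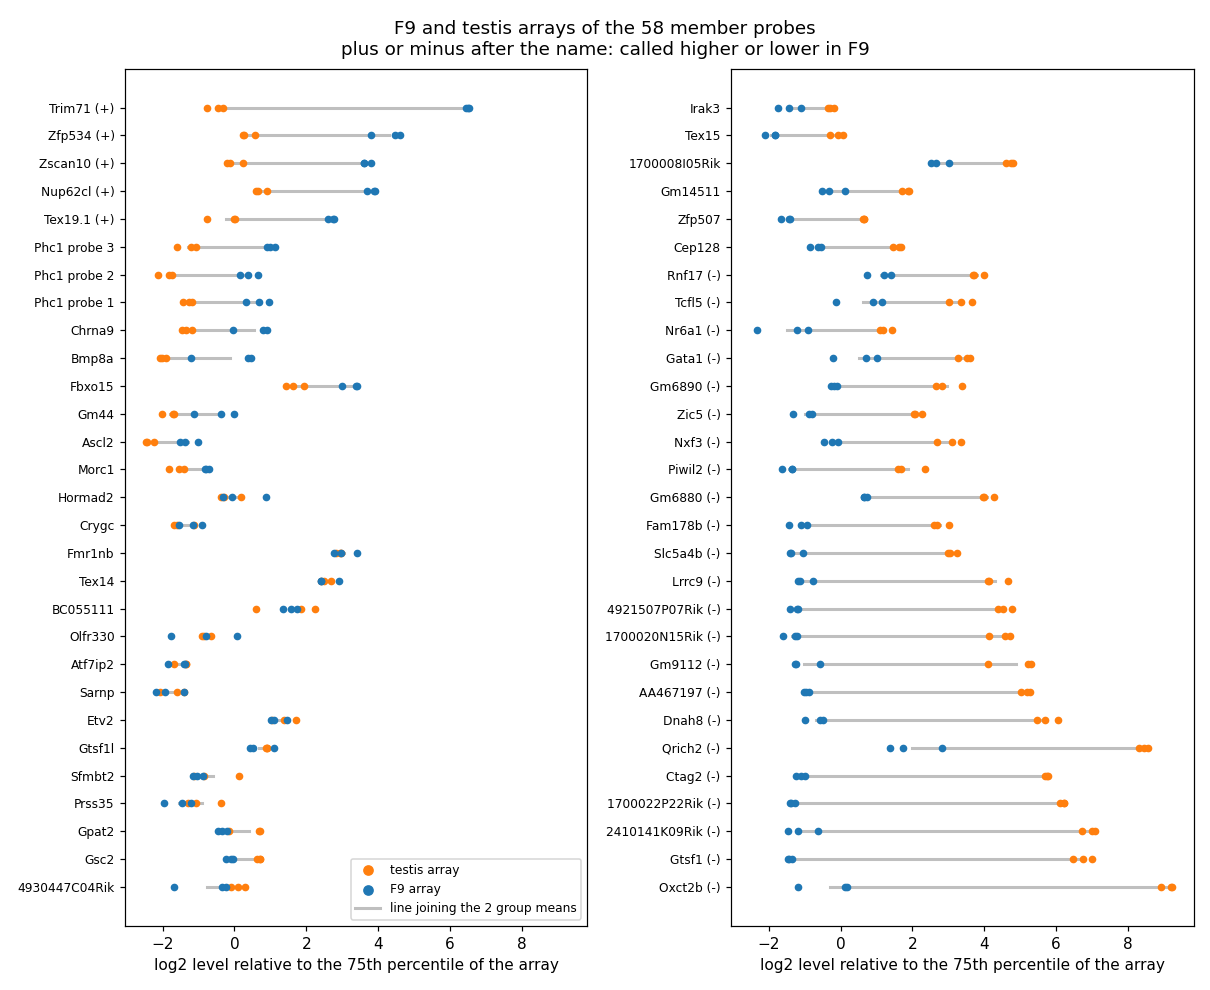
Level of each of the 58 member probes on the 3 F9 arrays (blue) and the 3 testis arrays (orange), as log2 relative to the 75th percentile of the array, with a gray line joining the group means. Genes followed by a plus (5) or a minus (23) were called higher or lower in F9, and Gtsf1 and Gtsf1l, on the right and the left panel, differ from testis by -8.17 and -0.21.

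The 5 genes of meiosis and germ cell division were all called neither way. Their median difference was -0.09, or -1.59 relative to the probes detected in both. Tex14, which builds the bridges between dividing germ cells, was at 2.91, 2.40 and 2.40 in F9 and at 2.70, 2.41 and 2.49 in testis, and Hormad2, a protein of unsynapsed meiotic axes, was at 0.89, -0.08 and -0.33 in F9 and at 0.19, -0.39 and -0.30 in testis. For both, the groups overlapped. The differences of 0.04 for Tex14 and 0.32 for Hormad2 fell below 0, to -1.27 and -0.98, with arrays scaled to the median of probes detected on all 24 arrays. A second Tex14 probe, which is no member because GC-1 detected it, was 0.68 higher in F9 (SE 0.22, limma adjusted p 0.0127), below the fold for a call. Atf7ip2, a partner of histone H3 lysine 9 methylation, had a difference of -0.09, with overlap. Its second probe, which is no member because GC-1 detected it, was called lower, with a difference of -3.18 (SE 0.25, limma adjusted p 3.14e-07), so the probes of this gene disagree. 4930447C04Rik, also known as Six6os1 and part of the synaptonemal complex, had a difference of -0.86 (SE 0.35, limma adjusted p 0.0372), with F9 replicate 1 at -1.68 and the other F9 arrays at -0.23 and -0.36. Cep128, a centriole protein, had a difference of -2.27 (SE 0.27, limma adjusted p 1.14e-05), just under the 5-fold needed for a call. It passed 5-fold under quantile normalization (-2.33), with the slide as a block (-2.42) and without testis replicate 1 or F9 replicate 1. Scaling to the median of probes detected on all 24 arrays or on each array gave -3.58 and -3.75. Of 25 genes named for meiosis, 10 were on the study's list, with 13 probes, and the rest were not looked up on the array. Of those that are not members, Trip13, an ATPase that remodels HORMA-domain proteins, was called higher with a difference of 2.79 (SE 0.29, limma adjusted p 2.99e-06), and the second Atf7ip2 probe was the 1 called lower.

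All 3 genes of the sperm tail were called lower in F9. Their median difference was -6.41, or -7.91 relative to the probes detected in both. Qrich2, needed for the flagellum, was at 2.83, 1.39 and 1.75 in F9 and at 8.57, 8.45 and 8.31 in testis, a difference of -6.46 (SE 0.35, limma adjusted p 1.07e-08). Dnah8, an axonemal dynein heavy chain of sperm, was at -0.98, -0.49 and -0.56 in F9 and at 6.05, 5.47 and 5.69 in testis, a difference of -6.41 (SE 0.67, limma adjusted p 3.51e-06). Lrrc9, a leucine-rich repeat protein, had a difference of -5.33, with an SE of 0.83 in a fit that includes GC arrays from -5.05 to -1.60. Each was nevertheless well above background on all 3 F9 arrays, and each was also detected on 1 or 2 arrays of GC-1. Of 13 genes named for the tail, 6 were on the study's list, and the rest were not looked up on the array. Among the 6, 5 were called lower in F9, the non-members Spag4 and Rsph6a included.

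Of the 55 member genes with a position in RefSeq, 12 were on the X chromosome (21.8%), beside 11 of 194 other mRNAs of the study's list (5.67%) and 966 of 21896 protein-coding genes (4.41%). The difference in shares was not tested. On the X, 7 of 12 probes were called lower in F9, 1 higher and 4 neither way, with a median difference of -3.05, and on autosomes 16 of 45 were called lower, 4 higher and 25 neither way, with a median of -0.75. In background, the X is silenced in spermatocytes during meiosis, and many X genes of the testis belong to multicopy families. Apart from Nxf3, described above, the X genes were as follows.

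Ctag2 was at -1.002, -1.23 and -1.10 in F9 and at 5.71, 5.79 and 5.76 in testis, without overlap and with a difference of -6.86 (SE 0.38, limma adjusted p 1.20e-08). Gm6880 was at 0.74, 0.66 and 0.66 in F9 and at 4.28, 3.97 and 4.01 in testis, and its difference was -3.40 (SE 0.22, limma adjusted p 3.78e-08). Gm6890 was at -0.09, -0.25 and -0.18 in F9 and at 3.37, 2.83 and 2.67 in testis, and its difference was -3.13 (SE 0.49, limma adjusted p 8.02e-05). The whole family thus had signals in F9 far below those in testis, and Gm6890 was also detected on 2 GC-1 arrays. Gm9112 (-5.90) and 1700020N15Rik (-5.83) were called lower too. Gata1, a factor of red blood cell precursors and Sertoli cells, was at -0.22, 0.72 and 1.02 in F9 and at 3.28, 3.53 and 3.60 in testis, a difference of -2.96 (SE 0.43, limma adjusted p 4.53e-05), and was detected on 2 heart and 2 GC-1 arrays.

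Nup62cl, which resembles the C-terminal part of a nuclear pore protein, was the only X member called higher. It was at 3.70, 3.87 and 3.92 in F9 and at 0.91, 0.65 and 0.59 in testis, without overlap, and F9 was 3.11 higher (SE 0.23, limma adjusted p 1.48e-07). It was on no array outside testis and F9, and 3 settings took the fold under 5, with differences of 1.64 to 2.29. Fmr1nb, a cancer/testis antigen, was at 3.42, 2.78 and 2.96 in F9 and at 2.81, 2.97 and 2.93 in testis, and the groups overlapped (limma adjusted p 0.69). Its difference of 0.15 turned negative under quantile normalization (-0.31) and under 3 other settings of scaling and background. 1700008I05Rik, now Tcp11x2, was at 3.01, 2.52 and 2.65 in F9 and at 4.60, 4.75 and 4.79 in testis, a difference of -1.99 without overlap (SE 0.62, limma adjusted p 0.0103). Gm14511, a ferritin heavy chain-like gene now named Fthl17c, had a difference of -2.07 (SE 0.22), and Gm44 was 1.30 higher (SE 0.45) but at -0.0090 and -0.18 when scaled to the median of probes detected on all 24 arrays or on each array.

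The other 16 members had 8 called lower in F9, none called higher and 8 called neither way. Their median difference was -2.42, or -3.92 relative to the probes detected in both. Oxct2b, a testis form of the enzyme that activates ketone bodies, was at -1.19, 0.11 and 0.17 in F9 and at 8.91, 9.19 and 9.24 in testis. Its difference of -9.42 (SE 0.82, 685-fold, limma adjusted p 6.92e-07) was the most negative of all members. 2410141K09Rik was at -0.64, -1.46 and -1.19 in F9 and at 6.73, 6.99 and 7.08 in testis, and 1700022P22Rik, now Spata45, was at -1.40, -1.37 and -1.26 in F9 and at 6.23, 6.23 and 6.12 in testis. Their differences were -8.03 (SE 0.27, limma adjusted p 1.92e-10) and -7.54 (SE 0.22, limma adjusted p 8.48e-11), and neither was detected on any GC array. AA467197 (-6.13), 4921507P07Rik (-5.83), Slc5a4b, of the glucose transporter family SGLT (-4.36), Fam178b (-3.93) and Tcfl5, a transcription factor of spermatocytes (-2.71), were the remaining calls.

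Of the 8 called neither way, Zfp507, a zinc finger gene (-2.14), and Irak3, an inhibitor of Toll-like receptor signaling (-1.14), had limma adjusted p of 3.12e-05 and 7.86e-04 and arrays that did not overlap. Chrna9, a nicotinic acetylcholine receptor subunit, was at -0.04, 0.90 and 0.81 in F9 and at -1.18, -1.47 and -1.34 in testis, 1.88 higher in F9 (SE 0.28, limma adjusted p 5.15e-05), and no GC array detected it. BC055111, an uncharacterized gene, was at 1.73, 1.58 and 1.36 in F9 and at 0.60, 1.84 and 2.24 in testis, with overlap and a difference of -0.0044 (SE 0.36). Prss35, Sarnp, Olfr330 and Crygc had differences of -0.63, -0.15, -0.03 and 0.26 with overlapping arrays.

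**Figure D4:**
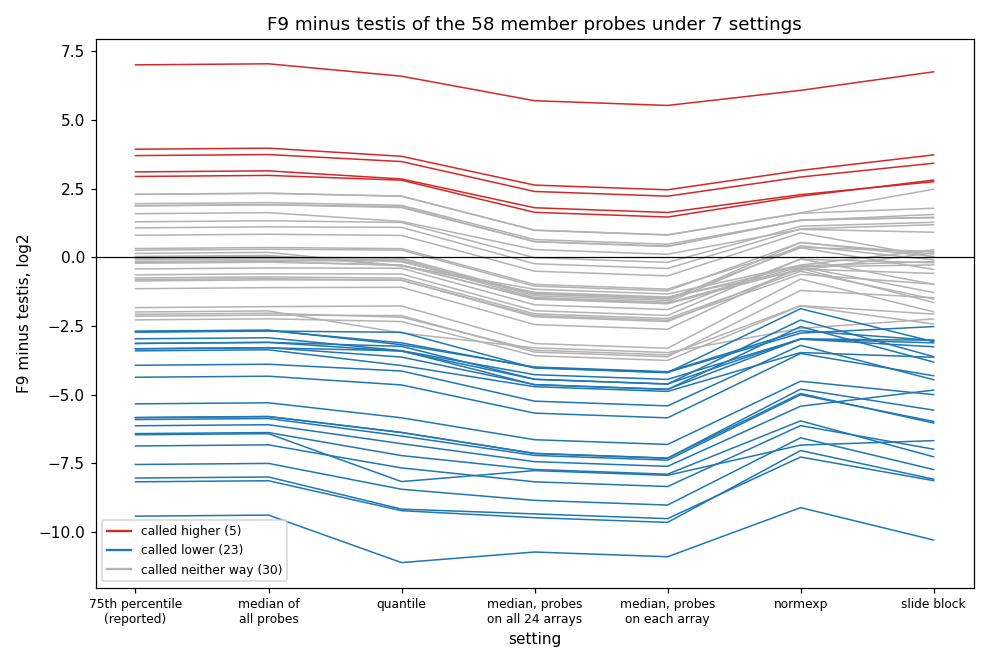
Difference between F9 and testis (log2, y axis) of each of the 58 member probes under 7 settings of scaling, background and slide (x axis), with 1 line per probe, red for the 5 called higher as reported, blue for the 23 called lower and gray for the other 30. Scaling to the median of detected probes moved the lines down together, with a shift of -1.31 when the probes detected on all 24 arrays were used.

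Promoter windows of 250 bases were held for 49 member genes, with 55 windows. Their median was 8 CG dinucleotides and an observed over expected ratio of 0.463, beside 10 and 0.53 in 21262 windows of protein-coding genes and 14 and 0.748 in 207 windows of the other mRNAs of the study's list. CACGTG, the E-box bound by MAX and its partner MGA, was in 8 member windows (14.5%), beside 6.63% of protein-coding windows and 5.31% of the other listed mRNAs. It was in Gm6880 and Gm6890 above and in 1700020N15Rik, 4930447C04Rik, AA467197, Zfp507 and 2 overlapping windows of Fam178b, which share a site, so that the 8 windows count it more than once. TTCCCGC, an E2F motif, was in 3 member windows (5.45%), beside 4.96% and 11.1%. Neither motif was in the 5 windows of the members called higher in F9.

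TCGCGAGA was searched after the printed windows had been seen. It was in 5 member windows (9.09%), beside 1.23% of protein-coding windows and 0.966% of the other listed mRNAs, so it was picked for its presence here. The windows were those of Ctag2, with 2 matches, Gm6880, Gm6890, Fmr1nb and 4930447C04Rik, and the first 3 are of 1 gene family. The motifs were searched on both strands, and no match of TCGCGAGA overlapped one of CACGTG. These matches describe letters in a window, and binding was not measured.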

How the data were processed

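RNA of 24 samples was labeled with Cy3 and hybridized to Arraystar mouse lncRNA arrays. The labels name Trizol for extraction and the methods a column kit. The authors deposited scanner files (Feature Extraction 11.5.1.1) that hold the processed signal intensity, background-subtracted and detrended, and flags for every probe, and a table of the same intensities, which matched the files within a relative difference of 0.000228. Neither was normalized between arrays. The probe symbols and the list of testis-specific mRNAs came from the study's supplementary tables, whose folds and p-values were not used.

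The log2 of each intensity was taken and centered on the array's own 75th percentile. limma 3.58.1 in R 4.3.3 (lmFit, eBayes) was fitted to the 12 arrays of testis, F9, GC-1 and GC-2, with Benjamini-Hochberg adjustment over 60804 probes and a call at 5-fold and 0.05. Tables were made with Python 3.11.15, pandas 2.3.3, numpy 2.4.6, Biopython 1.88 and matplotlib 3.10.9. In simulated data for F9 against testis, the fit called 187 of 200 probes changed by 3.5 on the log2 scale (93.5%). It made 1 false call among the rest of the 60804 probes, which had equal means in the groups. The simulation thus held no shift between F9 and testis arrays, and says nothing about false calls that come from the scaling. Precision is limited by having 3 arrays in a group, as arrays hold no read depth. No member was saturated on any array. Replicate 1 of every group was on slide 1, replicates 2 and 3 of testis on slide 2 and those of the cell lines on slide 3.

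The members and lists were chosen with earlier results of these data known. Array values are given for the 6 members highest in F9, the 6 largest and the 6 most negative called differences, the piRNA and pluripotency lists, genes with several probes and probes near the thresholds, and further members were added after their values were seen. The alternatives were other scalings, the methods' t-test, normexp (offset 50), the deposited table, slide and replicate blocks, a filter on dim probes, other flags and leaving out arrays. Of the alternatives, normexp on the median signal, the median of detected probes on each array and the values within slide 1 were chosen after seeing the data.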

Additional observations from a re-analysis of the deposited data

How the results depend on the processing

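Of the 28 calls, 2 of the 5 higher ones (Trim71, Zfp534) and 20 of the 23 lower ones were kept under all 24 other settings. Scaling to the median of probes detected on all 24 arrays or on each array added calls of lower. Both added Cep128, Irak3, Zfp507, Tex15, Gm14511 and 1700008I05Rik, and the second also added 4930447C04Rik. Against 23 lower, 5 higher and medians of -0.997 and, relative to the probes detected in both, -2.49, scaling to the median of probes detected on all 24 arrays gave 3 higher and a median of -2.30, the median of probes detected on each array 2 higher (30 lower) and -2.47, normexp 3 higher, -0.56 and -1.67 relative, quantile normalization -2.20 relative, the slide block -1.49 and -2.98 relative, and slide 1 alone, with no test, -1.58. With the adjusted p alone 14 were higher. The methods' t-test with the 5-fold limit gave 23 lower and 5 higher, before and after Benjamini-Hochberg adjustment. The shift of all arrays that these scalings imply for F9 over testis was -1.31, -1.48, -0.44 (normexp) and -0.50 (quantile). Leaving out an array gave 22 to 24 lower, 5 to 7 higher, medians of -1.21 to -0.96, relative medians of -2.70 to -2.44, and 53 to 58 members. Without F9 replicate 1, 20710 of all probes were called higher in place of 12156, and Tcfl5 (-2.32) and Nr6a1 (-2.30) lost their calls. The rule met 26 members with the flag for a positive and significant signal, 31 with no GC array detected and 48 with 2 of 3 arrays. The cause of these changes was not tested. The planned normexp on the mean signal was run on the median signal, as the files used here hold no mean signal.

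Signs changed only for members without a call. With the median of probes detected on all 24 arrays, the differences were -0.98 for Hormad2, -1.16 for Fmr1nb, -1.04 for Crygc, -0.50 for Morc1, -0.23 for Ascl2, -0.0090 for Gm44 and -1.27 for Tex14. With that of each array they were -1.15, -1.33, -1.22, -0.67, -0.40, -0.18 and -1.44. The median of all probes gave 0.034 for BC055111 and 0.0079 for Olfr330, quantile normalization -0.31 for Fmr1nb and -0.29 for Tex14, and the slide block 0.033 for Atf7ip2. Normexp gave -0.28 for Fmr1nb, 0.55 for Atf7ip2, 0.43 for Sarnp, -0.46 for Tex14 and 0.35 for Olfr330. Leaving out an array gave ranges across 0 for BC055111 (-0.49 to 0.33), Tex14 (-0.14 to 0.12), Olfr330 (-0.48 to 0.44), Hormad2 (-0.039 to 0.57), Fmr1nb (-0.036 to 0.28), Sarnp (-0.37 to 0.016) and Atf7ip2 (-0.20 to 0.060).

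The replicate block gave 23 lower, 5 higher and a median of -0.997. Deviations of F9 and testis arrays with the same number correlated at 0.13, 0.12 and 0.03, and F9 replicate 3 correlated best with testis replicate 2, so the numbers were not taken as pairs, although replicate 1 of both groups was on slide 1.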
